A study of Mus musculus with 6 samples.

Results

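The genes described here are 39 mouse genes that build the kinetochore, run the spindle checkpoint and drive cells into mitosis. They were chosen by gene symbol, with no measured value in the rule, from the 21878 symbols of 1 expression table. All 39 were in the table. All 39 also reached the mean of 1 FPKM (fragments scaled by transcript length and library size) over the libraries that was required for testing, as did 10624 genes in all.

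The table holds RNA-seq of B16F10, a mouse melanoma cell line, grown in DMEM (3 libraries) or in RPMI-1640 (3 libraries). Both media carried 10% fetal bovine serum and antibiotics, and all libraries were labelled as wild type. The DMEM titles add an unexplained code, HG, and only DMEM replicate 3 carries the code L3 where the other 5 carry L2. The labels of every library also give a recipe for fat-cell differentiation and a time of 0 without a unit; whether its agents were used on these cells was not stated. Separate cultures within a medium are not stated, so p-values measure a spread that may be technical.

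Each library held an estimated 36960000 to 46404000 reads, from the steps between FPKM values and a scaling factor described below. Any 1 member in 1 library rested on between 295 and 42118 reads. The labelled cell type was borne out by its markers. All 10 melanocyte markers were above 1 FPKM, with summed levels of 13424.7 to 13662.4 FPKM in the DMEM libraries and 10931.7 to 11097.6 in the RPMI-1640 libraries, and Dct was the highest. Of 5 adipocyte markers, Fabp4, Cfd and Lep were at 0 in all libraries, and the sum of the list was at most 0.614 FPKM in DMEM and 0.0915 in RPMI-1640. Of 5 leukocyte markers, only Cd68 was above 1 FPKM, the other 4 were at 0, and the sum was 2.43 to 2.77 FPKM in DMEM and 1.66 to 1.80 in RPMI-1640. Endothelial sums were at most 0.0873 FPKM in any library, and fibroblast sums lay between 0.653 and 0.859 with Dcn at 0.

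At mitosis, a chromosome is pulled by microtubules that attach to its kinetochore, a protein plate built on the centromere. An inner layer sits on nucleosomes that hold the histone variant CENP-A, and an outer layer, led by the NDC80 complex, grips the microtubule. The spindle checkpoint holds Cdc20 back until every kinetochore is attached, while cyclin B with Cdk1, the Aurora kinases and Polo-like kinase 1 drive the steps around it. Most of these genes are transcribed mainly in G2 and M phase, so in bulk RNA a larger share of cells in those phases and more RNA per cell cannot be told apart.

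Transcripts of 35 of the 39 genes rose in RPMI-1640, 0 fell, and Cenpp, Bub3, Plk1 and Birc5 did not pass the test. The test was limma on log2(FPKM + 1), with p-values adjusted by Benjamini-Hochberg over all 10624 tested genes and called at an adjusted p under 0.05. At an unadjusted p under 0.05 the count lower was also 0, and in a voom fit of the recovered reads 33 were higher and 0 lower. Over all tested genes that voom fit called 4323 higher and 3746 lower. Calls were common in this comparison: 76.0% of all tested genes passed, 40.6% higher and 35.4% lower in RPMI-1640, against 89.7% of the mitotic genes higher. The median log2 fold change (RPMI-1640 minus DMEM) of the 39 genes was 0.40, and that of all tested genes was 0.03.

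In 34 of the 39 genes (87.2%) every RPMI-1640 library lay above every DMEM library, a pattern found in 42.2% of all tested genes. None had all RPMI-1640 libraries below, against 36.7% of all tested genes. Libraries of both media overlapped for Cenph, Cenpm, Cenpp, Bub3 and Birc5. Changes were mostly small: only Cenpe, Mki67, Cenpf, Ndc80 and Ska2 rose by at least 1 on the log2 scale, which is 12.8% of the mitotic genes and 3.52% of all tested genes.

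**Figure D1:**
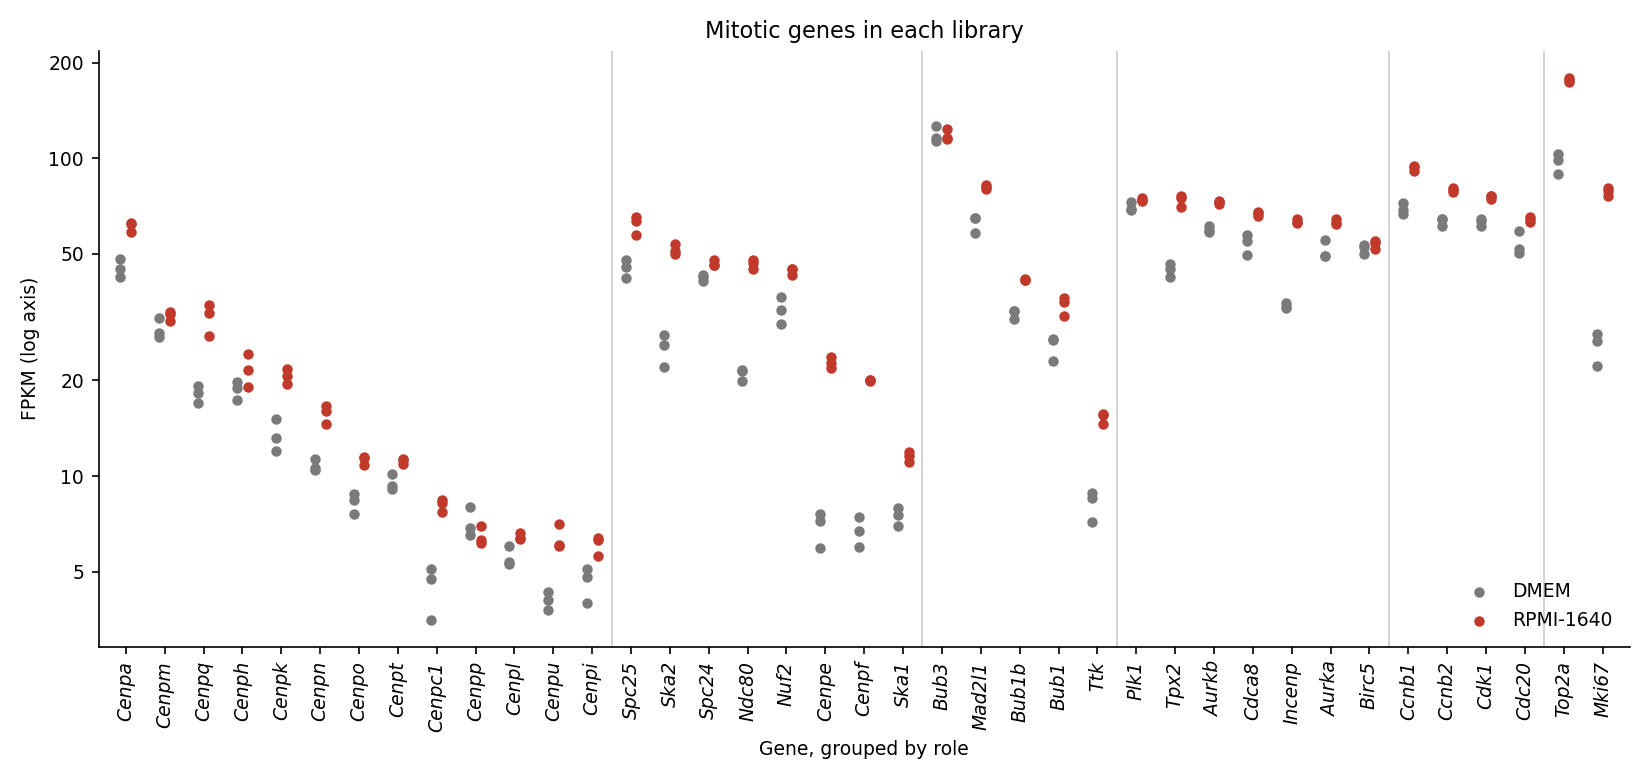
FPKM (log axis) of each of the 39 genes in the 3 DMEM libraries (grey) and the 3 RPMI-1640 libraries (red), 1 point a library, with grey lines between the role groups. In 34 genes the red points all lie above the grey ones, and the widest gaps are those of Cenpe, Cenpf and Mki67.

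Fold changes in this table went with gene length and base composition, and the mitotic genes shared that relation. Over 10566 tested genes with a known GC content, Spearman's rho of the log2 fold change was 0.464 with the gene length behind the FPKM values and -0.470 with GC content. Over the 39 genes, the values of rho were 0.446 for length and -0.385 for GC; genes share their libraries, so these values are descriptions only. The 39 genes were on the short side, from 1039 to 10572 bases with a median of 2194, and 28 of them were shorter than the median tested gene.

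For that reason each fold change is also given after a smooth trend on length and GC content had been removed from each library. On those values 33 of the 39 genes (84.6%) were higher, against 37.1% of all genes tested there, and 32 of the genes were higher on both scales. The only member called lower was Cenpp, against 36.8% of all genes tested there. Bub1, Cenpi, Cenpl, Bub3 and Birc5 did not pass. The median of the 39 genes was 0.43 on those values, and that of all genes was -0.0005. Individual values moved more than the median did: the change became smaller in 23 genes and larger in 16.

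**Figure D2:**
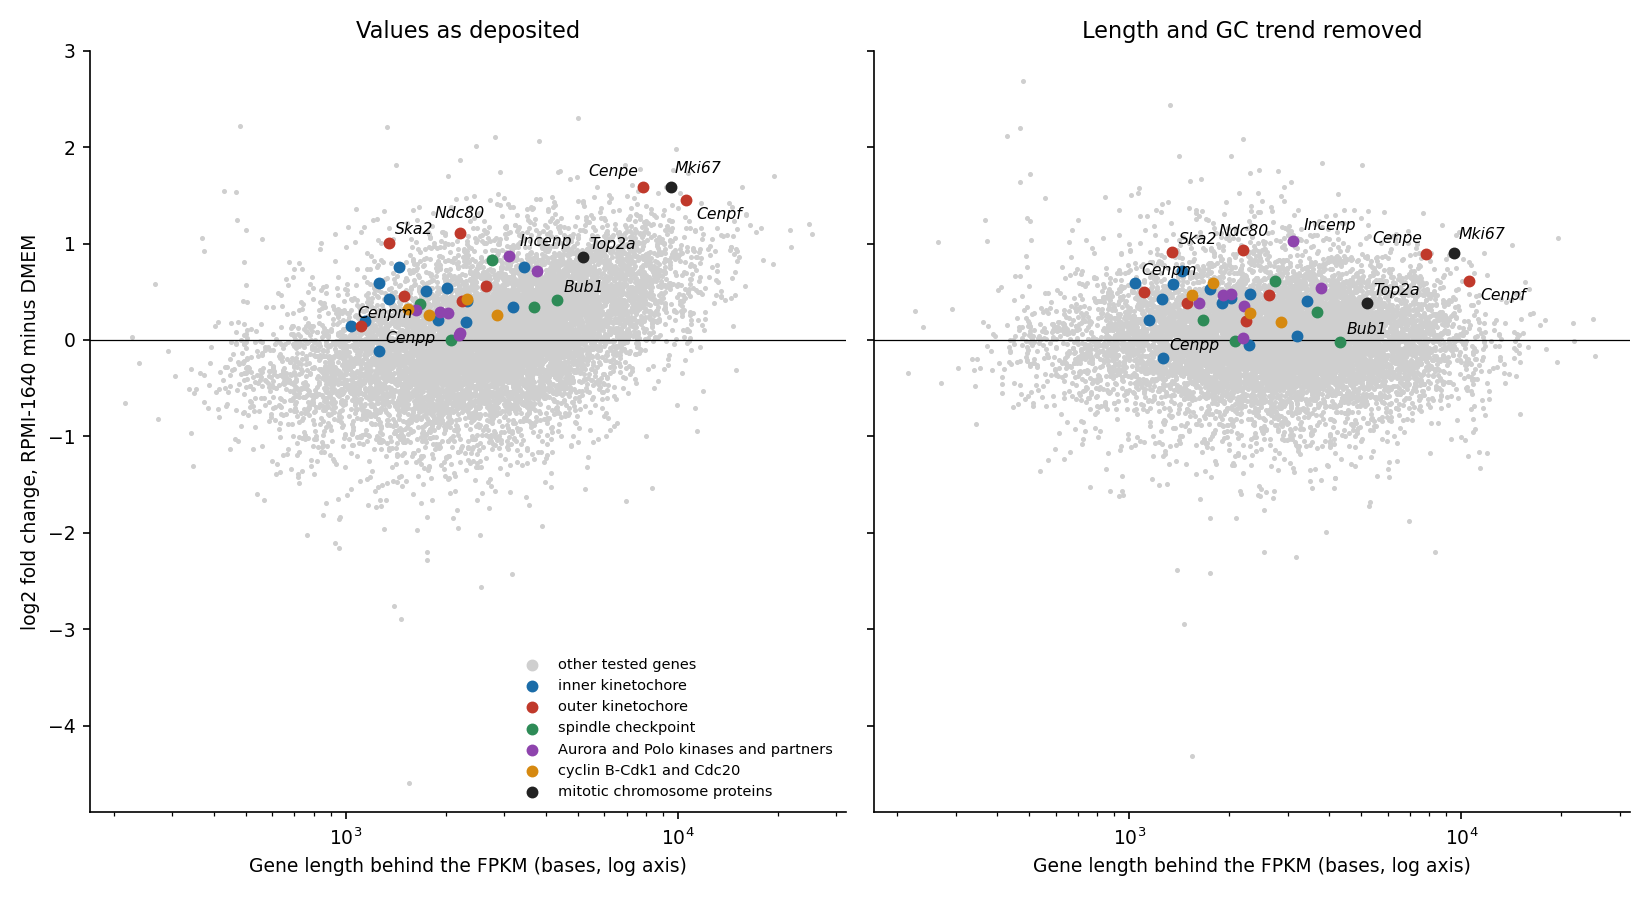
Log2 fold change (RPMI-1640 minus DMEM) against gene length in bases (log axis), with values as deposited on the left and with the length and GC trend removed on the right; grey points are other tested genes and coloured points the 39 genes by role. On the left the longest members, Cenpe, Mki67 and Cenpf, stand at 1.45 to 1.59, and on the right they stand at 0.61 to 0.90.

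The 4 longest genes, Cenpf, Mki67, Cenpe and Top2a, all of 5000 bases or more, were each among the larger changes. Their log2 fold changes ran from 0.86 to 1.59 as deposited and from 0.38 to 0.90 with the trend removed. Among the other 35 genes, all shorter than 5000 bases, the median was 0.37 as deposited and 0.43 with the trend removed, and 31 were called higher. DMEM replicate 3 was the lowest DMEM library in 20 of the 39 genes, and in 47.4% of all tested genes. Without that library, 34 of the 39 genes were higher, with a median of 0.35. Over all 10624 tested genes, 4239 were then higher and 3772 lower, with a median of 0.02.

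Promoter windows of many of these genes hold the same short motifs. G2/M genes are known to carry a CHR element (cell cycle genes homology region, TTTGAA), through which the DREAM and MuvB complexes act, and pairs of CCAAT boxes, bound by NF-Y. RefSeq promoter windows of build GRCm38.p6, from 250 bases before to 50 bases after each annotated start, were found for 34 of the 39 genes, in 37 windows. No window was matched for Spc24, Tpx2, Aurkb, Ska1 and Incenp. Both strands were searched.

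The CHR letters were in 48.6% of the member windows and in 17.9% of all 32851 windows, which were not limited to tested genes. A CCAAT was in 81.1% of the member windows, against 37.4% of all windows, and 54.1% held 2 or more, against 11.7%. An E2F motif, which was TTGGCGC or one of the variants TTCCCGC and also TTCGCGC, was in 29.7% of them, against 8.07%; TTGGCGC can share its first letters with ATTGG, the reverse of CCAAT. Windows with both CHR and CCAAT made up 45.9% of member windows and 6.95% of all windows. The mean GC content was 57.8% in member windows and 53.8% in all windows. A match of letters is a description and not a bound site.

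The spacing of the CCAAT letters was also described, and most member windows lacked the arrangement. In 9 of the 37 member windows, 2 CCAAT letters of one strand lay 25 to 40 bases apart, which is 24.3%, against 2.15% of all windows; this spacing was chosen after the windows had been read. The first stretches below show that arrangement in Ccnb2, Cdk1, Spc25 and Ttk, a cyclin, its kinase, an outer kinetochore subunit and a checkpoint kinase. Cdc20 is shown beside them for its CHR letters next to the start. Capitals mark TTTGAA or its reverse complement TTCAAA and CCAAT or its reverse complement ATTGG. Each reads 5′ to 3′ on the gene's own strand and ends at or before the annotated start, so that annotated first-exon bases are left out; motifs downstream of a stretch's end are not shown.
Ccnb2, chr9:70421555-70421754, minus strand: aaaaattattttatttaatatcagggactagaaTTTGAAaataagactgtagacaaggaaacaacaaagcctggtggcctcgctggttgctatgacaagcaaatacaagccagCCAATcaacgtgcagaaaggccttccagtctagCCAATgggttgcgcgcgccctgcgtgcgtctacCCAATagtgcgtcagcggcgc
Cdk1, chr10:69352939-69353112, minus strand: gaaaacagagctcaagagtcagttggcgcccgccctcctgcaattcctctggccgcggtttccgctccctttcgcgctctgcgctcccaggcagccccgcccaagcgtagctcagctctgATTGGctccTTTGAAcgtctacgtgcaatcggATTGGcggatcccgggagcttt
Cdc20, chr4:118437353-118437543, minus strand: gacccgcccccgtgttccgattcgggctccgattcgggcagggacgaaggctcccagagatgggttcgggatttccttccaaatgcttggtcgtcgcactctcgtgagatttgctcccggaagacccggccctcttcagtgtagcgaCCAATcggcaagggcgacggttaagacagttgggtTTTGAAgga
Spc25, chr2:69206214-69206413, minus strand: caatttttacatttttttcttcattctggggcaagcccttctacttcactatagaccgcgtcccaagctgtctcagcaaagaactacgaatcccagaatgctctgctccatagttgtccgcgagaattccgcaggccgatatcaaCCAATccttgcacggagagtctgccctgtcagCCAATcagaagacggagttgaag
Ttk, chr9:83834489-83834688, plus strand: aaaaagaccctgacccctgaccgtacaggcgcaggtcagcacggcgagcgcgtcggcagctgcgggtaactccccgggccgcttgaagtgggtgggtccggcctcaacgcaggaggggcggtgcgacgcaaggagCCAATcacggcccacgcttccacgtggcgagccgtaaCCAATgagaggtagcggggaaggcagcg
In Ccnb2 the 3 CCAAT letters begin 87, 54 and 21 bases before the start, spaced evenly. In Cdk1 the pair stands on the opposite strand, 80 and 48 bases before the start, with a CHR between and a second CHR outside the stretch shown.

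The promoters of Mki67 and Top2a hold several copies of both motifs. They are shown because their CCAAT letters fall on both strands. Top2a also holds the arrangement described above, with CCAAT letters of one strand 25 to 40 bases apart, and Mki67 does not.
Mki67, chr7:135716380-135716579, minus strand: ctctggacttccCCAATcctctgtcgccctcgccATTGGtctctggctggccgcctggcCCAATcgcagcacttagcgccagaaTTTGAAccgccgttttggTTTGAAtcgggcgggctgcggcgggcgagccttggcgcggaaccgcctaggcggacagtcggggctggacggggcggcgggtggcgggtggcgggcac
Top2a, chr11:99024190-99024389, minus strand: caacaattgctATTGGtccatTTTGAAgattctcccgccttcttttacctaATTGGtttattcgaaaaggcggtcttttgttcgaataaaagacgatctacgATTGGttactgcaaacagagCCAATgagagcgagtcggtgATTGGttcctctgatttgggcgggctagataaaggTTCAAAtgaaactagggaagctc
The Mki67 stretch holds 2 CHR and 3 CCAAT matches, and the Top2a stretch holds 2 CHR and 5 CCAAT matches. Among the 34 matched genes the median log2 fold change was 0.35 in the 17 genes with CHR letters and 0.40 in the 17 without; with the trend removed that order turned, to 0.46 with and 0.38 without. It was 0.42 in the 27 genes with a CCAAT and 0.37 in the 7 without, and with the trend removed 0.43 and 0.21. For the E2F motif it was 0.42 in 11 genes with it and 0.37 in 23 without, and 0.43 and 0.38 with the trend removed. Cenpe and Ska2, among the 5 largest changes, had no CHR letters in their windows, and Ndc80 had no CCAAT.

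Entry into mitosis is driven by cyclin B bound to Cdk1, and all 4 genes of this group rose in RPMI-1640, by 1.20- to 1.35-fold, with a median log2 fold change of 0.29. For this and the role groups below, the share higher over all tested genes was 40.6%, and 37.1% with the trend removed. Ccnb1, which encodes cyclin B1, stood at 68.7, 72.1 and 66.9 FPKM in DMEM and at 91.2, 94.5 and 93.9 FPKM in RPMI-1640. Its 3 RPMI-1640 libraries lay above all DMEM libraries, with a log2 fold change of 0.42 (SE 0.046, limma adjusted p = 6.65e-06) as deposited and 0.28 with the trend removed. In the GRCm38 annotation, 46.7% of the 32-base words of Ccnb1 transcripts also occur in other genes, so its level is uncertain.

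Ccnb2, for cyclin B2, rose from 63.4 ± 1.93 to 79.3 ± 1.24 FPKM (SD, n = 3 libraries each), a log2 fold change of 0.32 (0.47 with the trend removed). Cdk1, the kinase itself, stood at 64.6, 61.2 and 63.4 FPKM in DMEM and at 76.2, 74.4 and 76.3 FPKM in RPMI-1640. The Cdk1 groups were again separate, with a log2 fold change of 0.26 (SE 0.044, limma adjusted p = 0.000229) and 0.18 with the trend removed. Cdc20, the activator of the anaphase-promoting complex that the checkpoint holds back, rose from 53.7 ± 4.51 to 64.4 ± 1.13 FPKM, 0.26 on the log2 scale as deposited and 0.59 with the trend removed. For Cdc20, 26.1% of its 32-base words occur elsewhere, and Elovl1 overlaps it on the opposite strand; whether strand was used in counting is not given in the sources used here.

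Of the Aurora and Polo kinases and their partners, 5 of 7 genes rose and Plk1 and Birc5 did not pass the test; the median log2 fold change was 0.29. With the trend removed 6 of 7 were higher, with a median of 0.46. The largest changes as deposited were those of Incenp and Tpx2, which encode a scaffold and an activator rather than a kinase.

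Incenp encodes the scaffold of the chromosomal passenger complex, which places Aurora B at the centromere; it lies at chromosome 19, 9872296 to 9899551 on the minus strand of GRCm38. Its levels were 33.8, 35.1 and 33.9 FPKM in DMEM and 62.5, 64.3 and 63.2 FPKM in RPMI-1640. The groups were far apart and each was narrow, which gave a 1.85-fold rise (log2 fold change 0.87, SE 0.045, limma adjusted p = 3.53e-08). With the trend removed the change was 1.03, the only one of the 39 above 1, at the 98.6th percentile of all genes tested there.

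Aurkb, the kinase of that complex, rose from 59.8 ± 1.47 to 72.7 ± 0.914 FPKM, a log2 fold change of 0.28 (0.47 with the trend removed). Cdca8, which encodes its subunit borealin, rose from 53.9 ± 3.87 to 67.0 ± 1.00 FPKM, by 0.31 on the log2 scale (0.39 with the trend removed). Birc5, which encodes survivin, the remaining subunit, stood at 52.6, 49.9 and 53.4 FPKM in DMEM and at 55.1, 52.0 and 54.2 FPKM in RPMI-1640. The Birc5 groups overlapped, and the log2 fold change of 0.05 (SE 0.048, limma adjusted p = 0.379; 0.02 with the trend removed) did not pass. The 4 genes of this one complex thus spanned log2 fold changes from 0.05 to 0.87 as deposited and from 0.02 to 1.03 with the trend removed.

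Tpx2 encodes the microtubule-associated activator of Aurora A. It stood at 46.6, 44.8 and 42.3 FPKM in DMEM and at 75.8, 74.8 and 70.5 FPKM in RPMI-1640. The groups were well apart, with a 1.65-fold rise (log2 fold change 0.71, SE 0.052, limma adjusted p = 3.24e-07; 0.54 with the trend removed). Aurka, the kinase it activates, rose less, from 51.2 ± 3.40 to 63.0 ± 1.34 FPKM, a log2 fold change of 0.29 as deposited and 0.46 with the trend removed.

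Plk1, the Polo-like kinase of centrosome maturation, kinetochore attachment and mitotic exit, stood at 68.6, 69.3 and 72.9 FPKM in DMEM and at 73.5, 73.7 and 75.1 FPKM in RPMI-1640. All RPMI-1640 libraries were above all DMEM libraries, but by less than 1 FPKM at the nearest points, and the log2 fold change of 0.08 (SE 0.045) had a limma adjusted p of 0.143. Plk1 passed without DMEM replicate 3, with 0.10 (limma adjusted p = 0.0364), and with the trend removed, with 0.35 (limma adjusted p = 1.6e-06). Of the 32-base words of Plk1, 14.6% occur in other genes.

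In the inner kinetochore, 12 of 13 genes rose, with a median log2 fold change of 0.40, and Cenpp did not pass. With the trend removed 10 were higher and Cenpp was lower, with a median of 0.43. Apart from Cenpa these were mostly lowly expressed genes, and the group ranged from 3.54 to 62.5 FPKM over libraries.

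Cenpa encodes the histone H3 variant that marks the centromere and was the most abundant of the group. Its levels were 48.4, 42.4 and 44.8 FPKM in DMEM and 62.5, 62.2 and 58.6 FPKM in RPMI-1640. The groups did not overlap, with a log2 fold change of 0.43 (SE 0.056, limma adjusted p = 2.93e-05; 0.58 with the trend removed). Cenpc1, for the protein that links CENP-A nucleosomes to the outer layer, stood at 5.09, 4.74 and 3.54 FPKM in DMEM and at 8.22, 8.44 and 7.72 FPKM in RPMI-1640. DMEM replicate 3 was its lowest library, with a log2 fold change of 0.75 (SE 0.101, limma adjusted p = 3.43e-05) as deposited and 0.41 with the trend removed. Of the 32-base words of Cenpc1, 14.0% occur in other genes.

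The remaining inner kinetochore genes encode subunits of the constitutive centromere-associated network (CCAN), named for the sub-complexes they form. Cenpq, of the CENP-O/P/Q/U sub-complex, had the largest change of these remaining genes, from 18.2 ± 1.09 to 31.6 ± 3.59 FPKM. Its log2 fold change was 0.76, and 0.71 with the trend removed. As a ratio of mean FPKM its rise was 1.74-fold, below the 1.82-fold of Cenpc1. Cenpu rose from 4.07 ± 0.266 to 6.39 ± 0.604 FPKM, by 0.54 on the log2 scale (0.43 with the trend removed), and Cenpo from 8.26 ± 0.604 to 11.2 ± 0.358 FPKM, by 0.40 (0.47).

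The remaining gene of that sub-complex, Cenpp, went the other way in its point estimate. It stood at 7.997, 6.87 and 6.51 FPKM in DMEM and at 6.98, 6.31 and 6.18 FPKM in RPMI-1640. The groups overlapped, and the log2 fold change of -0.11 (SE 0.081) had a limma adjusted p of 0.217; with the trend removed it was -0.19 (limma adjusted p = 0.0127). The Cenpp locus holds several genes on the opposite strand, among them Ippk, Ecm2, Aspn, Omd and Ogn. Only whole gene spans were compared, not exons, so whether any reads are shared was not tested. Coding genes of the opposite strand also overlap Bub3, Cdc20, Cdca8, Cenpk, Cenpo, Cenpq, Cenpt and Cenpu.

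In the CENP-H/I/K/M sub-complex, Cenpk rose from 13.4 ± 1.56 to 20.6 ± 1.09 FPKM, a log2 fold change of 0.59 (0.43 with the trend removed). Cenpi rose from 4.64 ± 0.58 to 6.11 ± 0.431 FPKM, by 0.34, but its change was 0.04 and did not pass with the trend removed (limma adjusted p = 0.541). Cenph and Cenpm were called with small changes of 0.20 (limma adjusted p = 0.046) and 0.14 (limma adjusted p = 0.0468), and libraries of both media overlapped in each. Cenph kept its call only without DMEM replicate 1 or without replicate 3 of RPMI-1640; with any other library left out its change was 0.11 to 0.21 and did not pass. Cenpm kept its call only without DMEM replicate 3; without any other library its change was 0.10 to 0.17 and did not pass. With the trend removed Cenpm, the shortest of the 39 and among those richest in GC, stood at 0.59 and Cenph at 0.21.

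The CENP-L/N pair, which recognises the CENP-A nucleosome, split. Cenpn rose from 10.8 ± 0.466 to 15.7 ± 1.06 FPKM, by 0.51 on the log2 scale as deposited and 0.53 with the trend removed. Cenpl went from 5.57 ± 0.397 to 6.45 ± 0.144 FPKM, a log2 fold change of 0.18 (limma adjusted p = 0.0298) as deposited that turned to -0.05 (limma adjusted p = 0.425) with the trend removed. Cenpl kept its call only without DMEM replicate 1; without any other library its change was 0.15 to 0.19 and did not pass. Cenpt, whose long tail binds the NDC80 complex directly, rose from 9.54 ± 0.541 to 11.2 ± 0.234 FPKM, by 0.21 as deposited and by 0.38 with the trend removed.

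All 8 outer kinetochore genes rose, with a median log2 fold change of 0.79 as deposited and 0.55 with the trend removed, and all 8 passed on both scales. In each of them every RPMI-1640 library lay above every DMEM library.

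The NDC80 complex is a rod of 4 proteins in which Ndc80 and Nuf2 hold the microtubule end and Spc24 and Spc25 the chromosome end. Ndc80 lies at chromosome 17, 71496100 to 71526857 on the minus strand of GRCm38, and stood at 21.6, 21.4 and 19.9 FPKM in DMEM and at 47.7, 44.9 and 46.8 FPKM in RPMI-1640. Every RPMI-1640 library lay far above every DMEM library, a 2.22-fold rise (log2 fold change 1.11, SE 0.052, limma adjusted p = 2.11e-08; 0.93 with the trend removed). It stood at the 97.9th percentile of changes over all tested genes, and at the 98.1st with the trend removed.

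Its partners had smaller changes, in an order that differed between the scales. Nuf2 rose from 33.4 ± 3.17 to 44.2 ± 1.01 FPKM, by 0.40 on the log2 scale (0.19 with the trend removed), and Spc25 from 45.1 ± 3.00 to 62.1 ± 4.1 FPKM, by 0.45 (0.38). Spc24 stood at 42.3, 41.1 and 43.0 FPKM in DMEM and at 48.0, 46.2 and 46.3 FPKM in RPMI-1640. The Spc24 groups were separate but close, with a log2 fold change of 0.15 (SE 0.046, limma adjusted p = 0.0108) that was 0.50 with the trend removed; without RPMI-1640 replicate 1 it was 0.13 and did not pass.

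Cenpe encodes a kinesin motor that carries chromosomes to the spindle equator. It lies at chromosome 3, 135212537 to 135273611 on the plus strand of GRCm38. Its levels were 7.21, 7.61 and 5.93 FPKM in DMEM and 22.7, 23.7 and 21.9 FPKM in RPMI-1640. The lowest RPMI-1640 library was far above the highest DMEM library, a 3.29-fold rise and the largest of the 39 (log2 fold change 1.59, SE 0.080, limma adjusted p = 3.16e-08). With the trend removed the change was 0.89.

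Cenpf, a large coiled-coil protein of the kinetochore corona, stood at 6.73, 7.46 and 5.97 FPKM in DMEM and at 20.06, 19.97 and 20.004 FPKM in RPMI-1640. Its RPMI-1640 libraries were nearly equal, and the 2.98-fold rise (log2 fold change 1.45, SE 0.073, limma adjusted p = 3.06e-08) came down to 0.61 on the log2 scale with the trend removed. At 10572 bases it was the longest of the 39.

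The SKA complex follows the shrinking microtubule end with NDC80. Ska2 stood at 27.8, 26.0 and 22.1 FPKM in DMEM and at 53.8, 51.2 and 50.05 FPKM in RPMI-1640. No library of one medium came near the other, with a 2.04-fold rise (log2 fold change 1.01, SE 0.074, limma adjusted p = 3.39e-07); the change was 0.91 with the trend removed, although the gene has only 1349 bases. Ska1 rose from 7.49 ± 0.485 to 11.5 ± 0.403 FPKM, by 0.56 on the log2 scale (0.46 with the trend removed).

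**Figure D3:**
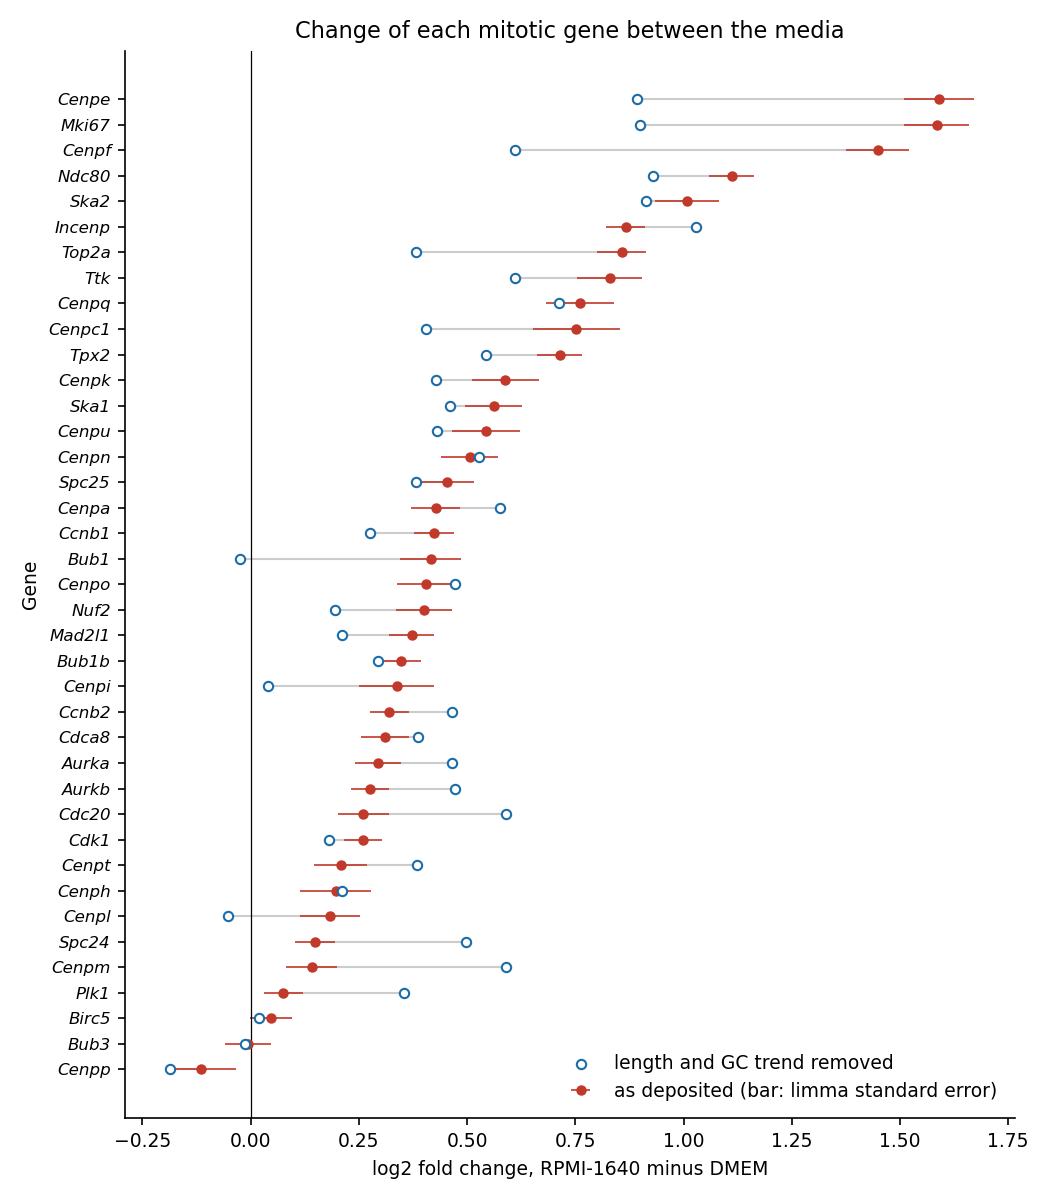
Log2 fold change (RPMI-1640 minus DMEM) of each of the 39 genes, as deposited (filled red points, bars are limma standard errors) and with the length and GC trend removed (open blue points). Cenpe, Mki67 and Cenpf move furthest left, Cdc20, Cenpm, Spc24 and Plk1 move right, and Cenpp, Bub3 and Birc5 stay near or below 0.

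In the spindle checkpoint, 4 of 5 genes rose and Bub3 did not pass, with a median log2 fold change of 0.37; with the trend removed 3 were higher, with a median of 0.21. Ttk encodes Mps1, the kinase that starts checkpoint signalling at unattached kinetochores. It stood at 8.84, 8.51 and 7.18 FPKM in DMEM and at 15.5, 15.7 and 14.6 FPKM in RPMI-1640. The groups were well separated, with a 1.87-fold rise (log2 fold change 0.83, SE 0.076, limma adjusted p = 1.68e-06; 0.61 with the trend removed).

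Bub1, the kinase that phosphorylates histone H2A at the centromere and recruits other checkpoint proteins, stood at 27.0, 26.9 and 23.1 FPKM in DMEM and at 35.2, 36.3 and 31.97 FPKM in RPMI-1640. All RPMI-1640 libraries lay above all DMEM libraries, with a log2 fold change of 0.42 (SE 0.070, limma adjusted p = 0.00021). Bub1 has 4323 bases with 41.0% GC, and with the trend removed its change was -0.02 and did not pass (limma adjusted p = 0.573).

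Bub3, the adaptor that docks Bub1 and BubR1 onto the kinetochore, was the most abundant checkpoint gene, at 114, 116 and 126 FPKM in DMEM and 116, 115 and 124 FPKM in RPMI-1640. The groups overlapped fully, with a log2 fold change of -0.0052 (SE 0.053, limma adjusted p = 0.934; -0.01 with the trend removed). Scaled to a common FPKM total, 38 of the 39 genes were called higher, against 51.5% of all tested genes, and the median of all tested genes moved to 0.18. Bub3 stood at 0.16 on that scale and was among those called. Bub3 has roles outside mitosis, in transcription and splicing.

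Mad2l1, which encodes Mad2, the protein that binds Cdc20 in the checkpoint complex, rose from 62.7 ± 3.77 to 81.3 ± 1.24 FPKM, a log2 fold change of 0.37 (0.21 with the trend removed). Bub1b, which encodes BubR1 of the same complex, rose from 32.5 ± 1.09 to 41.6 ± 0.0467 FPKM, by 0.35 (0.29 with the trend removed).

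Mki67 and Top2a encode proteins of the mitotic chromosome itself. Mki67, the proliferation marker Ki-67 that coats chromosomes in mitosis, lies at chromosome 7, 135689784 to 135716361 on the minus strand of GRCm38. It stood at 26.7, 28.0 and 22.1 FPKM in DMEM and at 75.9, 78.9 and 80.7 FPKM in RPMI-1640. The lowest RPMI-1640 library was well above the highest DMEM library, a 3.06-fold rise (log2 fold change 1.58, SE 0.075, limma adjusted p = 2.15e-08; 0.90 with the trend removed). Mki67 and Cenpe both stood at the 99.8th percentile of changes over all tested genes; with the trend removed they stood at 97.8 and 97.7.

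Top2a, the DNA topoisomerase that untangles sister chromatids, stood at 99.1, 103 and 89.0 FPKM in DMEM and at 177, 179 and 173 FPKM in RPMI-1640. It was the highest of the 39 in RPMI-1640, and Bub3 was the highest in DMEM. The 1.82-fold rise (log2 fold change 0.86, SE 0.056, limma adjusted p = 1.63e-07) came down to 0.38 on the log2 scale with the trend removed.

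Because FPKM is a level per length, genes can be set side by side within a library, and 9 pairs were compared. Most were pairs of partners, but Cenpe is of the outer and Cenpm of the inner kinetochore. The ratios printed are of FPKM, while the differences and p-values are for log2 ratios of FPKM + 1. With 3 libraries against 3, the exact two-sided permutation test cannot go below p = 0.1, so none of these differences could pass 0.05; adjusted over the 9 pairs, that p was 0.129. The Ndc80/Spc24 ratio was 0.511, 0.520 and 0.463 in DMEM and 0.994, 0.972 and 1.01 in RPMI-1640. The groups were apart, with a difference in log2 ratio of 0.96 (exact permutation p = 0.1; 0.43 with the trend removed).

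The Aurkb/Incenp ratio was lower in every RPMI-1640 library than in any DMEM library: it was 1.73, 1.69 and 1.81 in DMEM and 1.15, 1.13 and 1.16 in RPMI-1640. Its difference in log2 ratio was -0.59 as deposited (exact permutation p = 0.1) and -0.56 with the trend removed. The Aurkb/Birc5 ratio was higher in RPMI-1640, 1.11, 1.19 and 1.15 in DMEM against 1.30, 1.40 and 1.36, a difference of 0.23, and 0.45 with the trend removed. Relative to Aurkb, Incenp thus stood higher and Birc5 lower in all RPMI-1640 libraries.

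The differences of Aurka/Tpx2, Cenpe/Cenpm and Bub1/Bub3 shrank in size with the trend removed, as that of Ndc80/Spc24 did. Aurka/Tpx2 was 1.18, 1.10 and 1.17 in DMEM and 0.822, 0.862 and 0.880 in RPMI-1640, a difference of -0.42 that was -0.08 with the trend removed. Cenpe/Cenpm differed by 1.45 as deposited and by 0.30 with the trend removed. Bub1/Bub3 differed by 0.42 as deposited and by -0.012 with the trend removed.

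Cdk1/Ccnb1 was 0.940, 0.849 and 0.946 in DMEM and 0.835, 0.788 and 0.813 in RPMI-1640, separate groups with a difference in log2 ratio of -0.16 (exact permutation p = 0.1). The difference was -0.09 with the trend removed and the groups then overlapped (exact permutation p = 0.2). For Nuf2/Spc25 the mean ratio was 0.739 in DMEM and 0.714 in RPMI-1640 (exact permutation p = 0.3), and for Bub1b/Mad2l1 it was 0.520 and 0.511 (exact permutation p = 0.8). The groups overlapped in both of these last pairs as deposited. The Nuf2/Spc25 groups were separate once the trend was removed, with a difference in log2 ratio of -0.19 (exact permutation p = 0.1), the smallest p this design allows, and those of Bub1b/Mad2l1 overlapped.

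**Figure D4:**
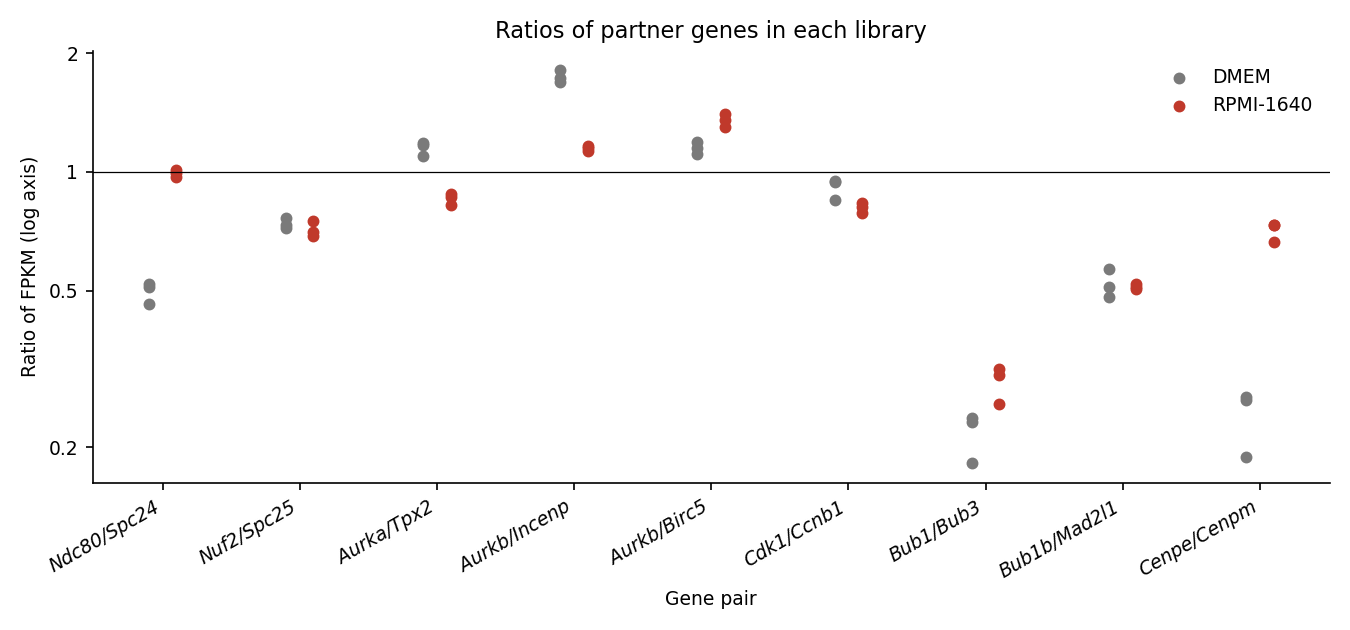
Ratio of FPKM of the 2 genes of each pair (log axis) in each of the 3 DMEM libraries (grey) and the 3 RPMI-1640 libraries (red). The line marks a ratio of 1. Ndc80/Spc24 moves from 0.463 to 0.520 in DMEM up to 0.972 to 1.01 in RPMI-1640, and Aurkb/Incenp moves down from 1.69 to 1.81 to 1.13 to 1.16.

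Other genes of mitosis were read from lists of the same pathways. Their counts stand beside 40.6% higher and 35.4% lower over all tested genes, and 37.1% and 36.8% with the trend removed. Of 29 other kinetochore and checkpoint genes, 21 rose, 4 fell and 4 did not pass, with a median log2 fold change of 0.50 (0.42 with the trend removed). Nsl1, a subunit of the MIS12 complex that joins both kinetochore layers, rose from 6.84 ± 0.234 to 20.6 ± 0.185 FPKM, a log2 fold change of 1.46, and held at 1.53 with the trend removed. Casc5, the older symbol of Knl1, the outer kinetochore scaffold for checkpoint proteins, had a change of 1.26 (0.48 with the trend removed), and Kntc1, a subunit of the RZZ complex, one of 1.22 (0.81). The genes that fell, named after their values had been seen, were Cenpb (-0.69), which binds a centromeric DNA box, Cenpw (-0.42), Mad2l1bp (-0.31), which helps switch the checkpoint off, and Bod1 (-0.53). Cenpb stood at -0.45, Cenpw at -0.56 and Bod1 at -0.12 with the trend removed, all called lower, while Mad2l1bp stood at 0.02 and did not pass (limma adjusted p = 0.798).

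Of 17 other kinases, cyclins and regulators of mitotic entry, 12 rose, 2 fell and 3 did not pass, with a median of 0.44 (0.26 with the trend removed). Bora, the cofactor through which Aurora A activates Plk1, rose from 3.18 ± 0.165 to 7.37 ± 0.487 FPKM, a log2 fold change of 1.00 (0.81 with the trend removed). Cdc25c, the phosphatase that activates Cdk1, had a change of 0.95 (0.87), and Pkmyt1, a kinase that inhibits Cdk1, one of 0.71 (1.07). Both the activator and the inhibitor of Cdk1 were thus higher. The genes that fell, named after their values had been seen, were Ccnf (-0.29) and Gtse1 (-0.14). Ccnf stood at -0.17 with the trend removed and was still called lower, while Gtse1 stood at 0.04 and did not pass (limma adjusted p = 0.339).

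All 16 genes of spindle assembly and cytokinesis rose, with a median of 0.70, and 15 were higher with the trend removed, with a median of 0.41. Aspm, which organises spindle poles, rose from 8.51 ± 1.11 to 25.6 ± 1.32 FPKM, a log2 fold change of 1.49 (0.89 with the trend removed). Cep192, a centrosome scaffold, had a change of 0.95 (0.33) and Prc1, which bundles the microtubules of the central spindle, one of 0.90 (0.68).

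Of 20 genes of the anaphase-promoting complex, its activators and separase, 6 rose, 5 fell and 9 did not pass, with a median of -0.0029. Over all tested genes 40.6% were higher and 35.4% lower. After removal of the trend 7 of the 20 were higher and 5 lower, with a median of 0.07. The shares over all genes tested there were 37.1% and 36.8%. Cdc27, a core subunit, rose from 20.2 ± 1.76 to 36.2 ± 2.1 FPKM, a log2 fold change of 0.81 that was 0.22 with the trend removed. Espl1, which encodes separase, the protease that cuts cohesin, and Fbxo5, an inhibitor of the complex, each had a change of 0.68 (0.51 and 0.63 with the trend removed). The genes that fell, named after their values had been seen, were the core subunits Anapc5 (-0.27), Anapc11 (-0.60), Cdc16 (-0.20) and Cdc26 (-0.19) and the activator Fzr1 (-0.34). Anapc5 (-0.13), Anapc11 (-0.51) and Cdc16 (-0.24) were still called lower with the trend removed. Cdc26 (-0.10, limma adjusted p = 0.203) and Fzr1 (0.02, limma adjusted p = 0.537) did not pass, and Fzr1 had turned.

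Of 21 transcription regulators of G2/M genes, 12 rose, 1 fell and 8 did not pass, with a median of 0.18. On the values with the trend removed, 15 were higher and 3 lower, around a median of 0.20. Rbl1, which encodes p107, a pocket protein of the DREAM complex, rose from 16.4 ± 1.83 to 40.5 ± 2.93 FPKM, a log2 fold change of 1.26 (0.92 with the trend removed). E2f3 had a change of 0.64 (0.40 with the trend removed) and Lin52, a MuvB subunit, one of 0.62 (0.63). Lin37, another MuvB subunit, was the gene that fell (-0.44), but with the trend removed it stood at 0.01 and did not pass (limma adjusted p = 0.884). Chosen after their values had been seen, for their role at the CHR element, Foxm1 had a change of 0.18 (limma adjusted p = 0.00318) and Mybl2 did not pass, with 0.02 (limma adjusted p = 0.739). On the other scale they stood at 0.20 and 0.14, and both passed (limma adjusted p = 0.000265 and 0.00621).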

How the data were processed

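RNA was extracted with Trizol, and 2 µg went into SMARTer mRNA-seq libraries, per the labels' protocols. The authors deposited 1 table of FPKM values per gene symbol, with builds GRCm38 and mm10 named per the submitters' processing notes; no source used here names the aligner, the counter or the use of strand. Low FPKM values fell on steps of whole reads (all 10624 tested genes within 0.001 of whole reads). The steps gave each gene's reads and the relative depth of the libraries. Library totals and gene lengths also rest on a scaling factor. It was the commonest among 750 tested genes with 1 annotated transcript, and 84 of them shared it. The 295 reads of the lowest member value bound its counting precision.

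The fit was limma 3.58.1 in R 4.3.3 with a variance trend, on log2(FPKM + 1). Genes needed a mean of 1 FPKM over all libraries, and medium was the only term. Fold changes on this scale understate the change of low genes; fold values are ratios of mean FPKM. SDs are over 3 libraries. The trend on length and GC content was removed per library with natural splines of 5 degrees of freedom. GC content came from the GRCm38 annotation, in which 20654 symbols matched directly and 462 by an older symbol. Ratios were tested by exact permutation in Python 3.11.15 with numpy 2.4.6. Scripts were tested on simulated data.

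Replicate numbers in the titles were checked as pairs: deviations of same-numbered libraries correlated at 0.151, 0.150 and 0.382, all over 0.1. Pairing was therefore tried as a replicate block, from the data and not from a stated design. It entered only that alternative, and the p-values printed here are unpaired. Differently numbered libraries correlated nearly as much for DMEM 2 with RPMI-1640 1 (0.137) and DMEM 1 with RPMI-1640 2 (0.131), so the numbers 1 and 2 were hardly distinguished. With the trend removed the same-numbered libraries correlated at 0.0580, 0.0415 and 0.154, so numbers 1 and 2 fell under 0.1. All 39 members were named, and of each other list the 3 called genes with the largest absolute change. The members and lists were chosen with earlier results of these data known. Alternatives covered the pseudocount, the filter, scaling, the trend, the replicate block, voom and each library left out.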

Additional observations from a re-analysis of the deposited data

How the results depend on the processing

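The members' median log2 fold change was 0.56 when libraries were scaled to a common FPKM total, which moved the median of all tested genes from 0.03 to 0.18; relative to that median the members stood at 0.37 as deposited and 0.38 after scaling. With 1 library left out at a time it ran from 0.35 to 0.44, and 31 to 34 members were called higher. Over all tested genes, 3994 to 4289 were then higher and 3460 to 3772 lower. The number called lower went from 0 to 1, always Cenpp, under quantile normalization (-0.27), with the length and GC trend removed (-0.19), with the replicate block and that trend removed, and with the trend removed without DMEM replicate 3 (-0.21), the last chosen after seeing the data. Directions turned for Bub3 (0.16 at a common total, 0.14 under quantile normalization). Bub3 also turned in settings where it did not pass, for example to 0.04 without DMEM replicate 3 (limma adjusted p = 0.423). Cenpp turned to 0.03 at a common total and did not pass there (limma adjusted p = 0.777). Directions also turned for Cenpl and Bub1 with the trend removed (-0.051 and -0.024, the same with the replicate block) and without DMEM replicate 3 besides (-0.026 and -0.030). The Bub1/Bub3 ratio turned to -0.012 and Bub1b/Mad2l1 to 0.081 with the trend removed, and Bub1b/Mad2l1 ran from -0.079 to 0.039 with 1 library left out, 0.039 being without DMEM replicate 3; the cause was not tested. The replicate block left 35 members higher and changed no member's call. Over all tested genes, 4496 were higher and 3936 lower with that block. Plk1 and Birc5 passed at a common total and under quantile normalization. Bub1, Cenph, Cenpl, Cenpm, Cenpt, Cenpi and Spc24 each lost the call under at least 1 alternative. With 3 libraries a medium, no ratio could pass 0.05.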

Other observations

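Mki67 moved furthest in level order: it stood at 25.6 ± 3.07 FPKM in DMEM, below Incenp at 34.3 ± 0.732, and at 78.5 ± 2.43 in RPMI-1640, above Incenp at 63.4 ± 0.923 (SD, n = 3 libraries). RPMI-1640 replicate 3 was the lowest RPMI-1640 library in 20 of the 39 genes, and in 40.7% of all tested genes.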
